A study of Saccharomyces cerevisiae with 6 samples.

Results

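The 10 genes followed here encode proteins of peroxisomal fatty acid oxidation in the yeast Saccharomyces cerevisiae: POX1, FOX2, POT1, FAA2, PXA1, PXA2, CTA1, ECI1, DCI1 and PEX11. They were picked by name, with earlier results of these data known. Each matched 1 row of the deposited table, so that 10 of its 5625 rows are described. Polyadenylated RNA had been sequenced from 3 strains, with 2 libraries each, described as biological duplicates and, per the labels, taken from aerobic bioreactor cultures. IMX605 (libraries R12 and R7) carries the genes of glycolysis at a single locus on chromosome V, and IMX606 (libraries R13 and R8) carries them at a single locus on chromosome IX. IMX372 (libraries DSE001 and DSE002), titled MG, keeps the major paralogs at their native loci. As background, IMX372 is known as the minimal glycolysis strain, from which genes of minor glycolytic isoenzymes were deleted, and the single-locus strains descend from it. The labels give the medium as SMD, without spelling it out. The IMX372 libraries were taken over from an earlier deposit, so strain and library set cannot be told apart in either comparison with IMX372, and both comparisons share these 2 control libraries.

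In yeast, fatty acids are broken down only in peroxisomes. Fatty acids enter as CoA esters through a membrane transporter or are activated inside, and each turn of the cycle shortens the chain and yields hydrogen peroxide and acetyl-CoA. The genes are known to be repressed on glucose and induced on oleate, by the Oaf1-Pip2 pair of transcription factors acting at oleate response elements and by the activator Adr1.

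The oleate response element is a feature that most of these genes share and that the choice of genes did not use directly. Since the genes are known to be induced through such elements, a high count of matches before them is no independent result. The 500 bases before each start codon were searched on both strands for CGGNNNTNA followed by 8 to 12 bases of any kind and CCG. The sequences are those of the RefSeq assembly R64 of strain S288C, since no sequence of the CEN.PK113-7D build was read here. A match was present before 9 of the 10 genes, against 127 of 6000 protein-coding genes (2.12%), and PXA1 had none in this window. The 11 matches are shown on the strand of their gene, with the CGG and CCG triplets in capitals, to show how alike they are across genes with different transcript changes.

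POX1, distal match: CGGtattagttgattaaactCCG
POX1, proximal match: CGGtcattagcggctaatagCCG
FOX2, distal match: CGGaagcctagttttaagtCCG
FOX2, proximal match: CGGggaaatttgttaacgCCG
POT1: CGGggataatagtattaacaCCG
FAA2: CGGaccgtcagtctttaacgCCG
PXA2: CGGcgttaattacaactatcaCCG
CTA1: CGGctttaacaaatataaactCCG
ECI1: CGGgcataagaaatattattCCG
DCI1: CGGctgtaagcgcgctaaactCCG
PEX11: CGGcatttatctcggagaacCCG

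The matches lay between 312 and 113 bases before the start codon and held 15 to 18 bases between the triplets. The core TTGGAG or TTGGGG, bound by Adr1, was found on either strand before 9 of the 10 genes, PXA2 being the exception, against 26.2% of all 6000. A core of the glucose repressor Mig1, searched as G or C, then C or T, then GGGG, was found before 3 genes (CTA1, FAA2 and DCI1), against 22.7% of all. None of these matches overlapped a match to another of the motifs. A match is a string of letters and not a measured binding site.

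The 300 bases before the start codon follow for the 3 genes that passed a test in at least 1 strain, with matches to the oleate response element and to the Adr1 core in capitals. They are CTA1 at chrIV:969681-969980, POT1 at chrIX:41445-41744, both on the minus strand, and FAA2 at chrV:184241-184540 on the plus strand.

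CTA1: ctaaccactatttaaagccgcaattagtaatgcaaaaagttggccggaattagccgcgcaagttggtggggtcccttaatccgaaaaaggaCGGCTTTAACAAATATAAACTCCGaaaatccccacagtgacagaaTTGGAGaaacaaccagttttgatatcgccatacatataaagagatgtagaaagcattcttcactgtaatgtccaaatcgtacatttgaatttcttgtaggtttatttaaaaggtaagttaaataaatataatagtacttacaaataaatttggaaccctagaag
POT1: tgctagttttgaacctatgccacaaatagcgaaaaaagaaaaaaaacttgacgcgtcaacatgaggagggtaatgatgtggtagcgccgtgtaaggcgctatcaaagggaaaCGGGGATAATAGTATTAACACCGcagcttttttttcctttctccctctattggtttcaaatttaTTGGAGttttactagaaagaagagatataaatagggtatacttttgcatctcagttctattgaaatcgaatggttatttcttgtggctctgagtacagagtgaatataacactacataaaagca
FAA2: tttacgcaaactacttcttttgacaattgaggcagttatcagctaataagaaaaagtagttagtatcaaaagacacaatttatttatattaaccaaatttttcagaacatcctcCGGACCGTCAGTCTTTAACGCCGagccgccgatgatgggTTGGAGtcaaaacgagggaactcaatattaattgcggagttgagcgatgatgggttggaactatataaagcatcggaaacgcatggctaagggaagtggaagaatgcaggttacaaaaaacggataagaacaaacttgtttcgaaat

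In CTA1 the oleate response element match spans the bases 209 to 186 before the start codon and the Adr1 core the bases 164 to 159. In POT1 they lie at 188 to 166 and 124 to 119, and in FAA2 at 186 to 164 and 147 to 142. The same pair of motifs in the same order precedes the genes that were lower and the gene that was higher in the single-locus strains. It also precedes POX1, FOX2 and PEX11, which limma did not call, whereas in DCI1, also not called, the Adr1 core came first. ECI1, not called either, had Adr1 cores on both sides of its element at 173 to 151. They lay at 498 to 493, 119 to 114 and 50 to 45. A link between motifs and transcript differences was not tested.

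Expression is given in FPKM, fragments scaled to gene length and to the fragments counted on genes, as deposited. The libraries held 18754741 to 21370278 recovered reads on genes in 5 cases and 70510681 in IMX372 DSE001. Behind the values of the 10 genes stand 39 to 10316 reads per library, and 3 reads on a gene of 1 kb correspond to 0.0425 to 0.160 FPKM. Intervals from reads cover counting error only. All 10 genes had a mean of at least 1 FPKM and were tested together with 5459 genes in all. Differences were taken between means of log2(FPKM + 1), where the added 1 shrinks the change of a weakly expressed gene. Each p-value is from limma and was adjusted by the Benjamini-Hochberg method over all the genes in the fit. With 2 libraries per strain, each p-value sets a difference against the spread between libraries of the same strain. That spread was pooled over the 3 strains and moderated with the spread of all genes tested. It covers only these libraries. In bulk RNA, fewer cells that express a gene and less RNA per cell cannot be told apart.

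In IMX372 the 10 genes ranged from weakly to well expressed. PEX11 stood at 202.7 ± 4.40 FPKM (mean ± SD, n = 2), above 84.0% of the genes tested. The other 9 genes lay below the median of all genes tested, 48.1 FPKM. CTA1 followed at 19.2 ± 1.23 FPKM, then DCI1 at 16.1 ± 2.12 and ECI1 at 15.9 ± 0.242, which did not differ beyond their spread, and FOX2 at 10.4 ± 0.441. FAA2 at 9.01 ± 1.00 FPKM and PXA1 at 8.78 ± 0.961 did not differ beyond their spread, nor did PXA2 at 7.25 ± 0.585 and POT1 at 6.76 ± 0.00833, while POX1 was the lowest at 5.04 ± 0.584. In both single-locus strains CTA1 dropped from the second place in this order to the level of POX1, and POT1 became the lowest of the 10.

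**Figure D1:**
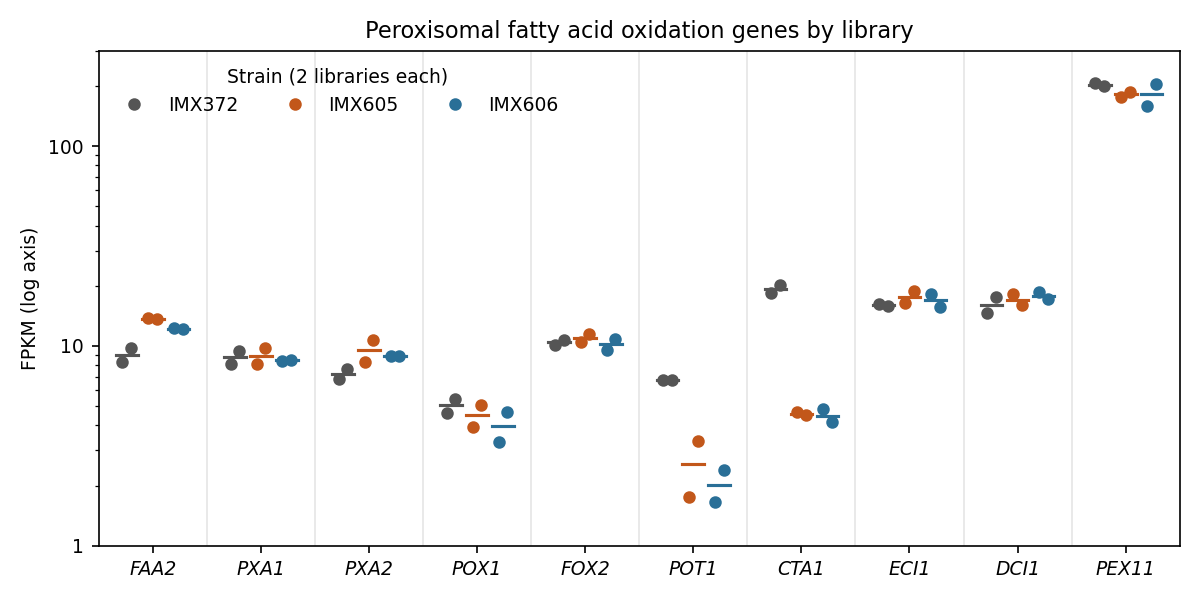
Transcript levels of the 10 genes (FPKM, log axis) in each library, with points for the 2 libraries of a strain and bars for their means. CTA1 lies at 18.4 and 20.1 FPKM in IMX372 and between 4.14 and 4.82 in the other 4 libraries, and POT1 is also lower there, while the points of most other genes lie side by side.

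Both CTA1 and POT1 fell in each single-locus strain, and FAA2 rose in IMX605. Against IMX372, limma called 3 of the 10 genes in IMX605, 1 higher and 2 lower, where 30.0% of all genes tested were called, 15.0% higher and 15.0% lower. In IMX606 it called 2 of the 10, both lower, where 23.9% of all were called, 11.1% higher and 12.8% lower. The share of called genes among the 10 was therefore near the background in both strains. The median difference of the 10 genes was 0.04 in IMX605 and -0.04 in IMX606, beside -0.03 and -0.06 over all genes tested.

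CTA1 encodes the catalase of the peroxisomal matrix, which removes the hydrogen peroxide made by the first oxidation step. It lies at chromosome 4, 947706 to 949253, on the minus strand of the CEN.PK113-7D sequence used by the deposited table. It read 4.65 FPKM in IMX605 R12, 4.51 in IMX605 R7, 4.82 in IMX606 R13, 4.14 in IMX606 R8, 18.4 in IMX372 DSE001 and 20.1 in IMX372 DSE002. In the sentences on other genes, values stand in this order of libraries. Every library of the single-locus strains was far below both IMX372 libraries, and the 2 single-locus strains overlapped. The means were 23.8% and 23.3% of the IMX372 mean. The log2 difference was -1.86 (SE 0.15, adjusted p = 4.87e-06, limma) in IMX605 and -1.88 (SE 0.15, adjusted p = 4.63e-06) in IMX606. The values rest on 136 to 145 reads in the single-locus libraries and on 2003 and 594 reads in IMX372, and both calls held in each of the 15 alternatives computed for them. With voom on the recovered reads, which needs no added pseudocount of 1 FPKM, the differences were -2.04 and -2.09.

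POT1 encodes the 3-ketoacyl-CoA thiolase, which cleaves acetyl-CoA from the chain in the last step of the cycle. It lies at chromosome 9, 34492 to 35745, on the minus strand. Its levels were 1.74 and 3.35 FPKM for IMX605, 1.66 and 2.39 for IMX606, and 6.75 and 6.76 for IMX372. All 4 single-locus libraries were below both IMX372 libraries, with the wider spread in IMX605. The counting intervals (95%, exact Poisson) reached from 1.18 to 4.16 FPKM in the single-locus libraries and from 5.76 to 7.89 in IMX372. The log2 differences were -1.17 (SE 0.24, adjusted p = 0.00384, limma) in IMX605 and -1.37 (SE 0.24, adjusted p = 0.00180) in IMX606, with means at 37.7% and 29.9% of IMX372. The IMX605 call ended without IMX372 DSE002 (-1.17, adjusted p = 0.0618). On recovered reads the differences were -1.48 and -1.74, and with a pseudocount of 5 they were -0.65 and -0.75. A gene on the opposite strand, YIL161W, ends 50 bases away at 11.2 times the mean level, and it read 32.9 and 39.0 FPKM in IMX372 against 41.2 to 51.4 in the other libraries. No source used here states whether the counting used strand, and the part of such reads in POT1 was not tested.

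FAA2 encodes a medium-chain acyl-CoA synthetase that activates fatty acids inside the peroxisome. It lies at chromosome 5, 185443 to 187677, on the plus strand. In R64 its first 160 bases also belong to BUD25, annotated on the opposite strand, so reads there cannot be assigned without strand. FAA2 read 13.7 and 13.6 FPKM with the locus on chromosome V (IMX605), 12.3 and 12.1 with it on chromosome IX (IMX606), and 8.31 and 9.72 with native loci (IMX372). The libraries of each single-locus strain lay close together and both strains were above IMX372 without overlap. The log2 difference was 0.55 (SE 0.14, adjusted p = 0.0113, limma) in IMX605 and 0.40 (SE 0.14, adjusted p = 0.0524) in IMX606, with means at 151% and 136% of IMX372. The call in IMX605 ended without R12 (adjusted p = 0.0713), without R7 (0.0730) and without IMX372 DSE001 (0.0646). IMX606 passed with median-of-ratios scaling (0.0221), without limma's trend (0.0336) and on recovered reads (0.0239).

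FAA2 and POT1 sit on the chromosomes that the labels give for the single loci, chromosome V in IMX605 and chromosome IX in IMX606. The difference of each from IMX372 had the same sign in both strains, and between the single-locus strains the log2 difference was 0.15 (95% interval -0.15 to 0.45) for FAA2 and 0.20 (-0.32 to 0.73) for POT1.

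PXA1 and PXA2 encode the half-transporters that together carry long-chain acyl-CoA into the peroxisome. PXA1 averaged 8.92 ± 1.13 FPKM (IMX605), 8.45 ± 0.00334 (IMX606) and 8.78 ± 0.961 (IMX372), with log2 differences of 0.02 (95% interval -0.32 to 0.36) and -0.05 (-0.38 to 0.29). For PXA2 the IMX605 libraries gave 8.28 and 10.8 FPKM, those of IMX606 8.87 and 8.95, and those of IMX372 6.84 and 7.66. Its 4 single-locus values lay above both IMX372 values, but the differences of 0.34 (adjusted p = 0.127, limma) and 0.27 (adjusted p = 0.251) did not pass.

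POX1 encodes the acyl-CoA oxidase that opens the cycle, and FOX2 the multifunctional enzyme of the hydratase and dehydrogenase steps. POX1 gave 3.94 and 5.05 FPKM (IMX605), 3.30 and 4.64 (IMX606), and 4.63 and 5.45 (IMX372). The strains overlapped, and the log2 differences were -0.14 (95% interval -0.58 to 0.29) and -0.29 (-0.73 to 0.15). FOX2 covered 9.51 to 11.5 FPKM over all 6 libraries, and its differences were 0.06 (95% interval -0.25 to 0.37) and -0.04 (-0.34 to 0.27). Of the 3 enzymes of the cycle, limma thus called the last and not the first or the second.

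ECI1, a delta3,delta2-enoyl-CoA isomerase, and its relative DCI1, named as a dienoyl-CoA isomerase, serve the breakdown of unsaturated fatty acids. ECI1 ranged from 15.7 to 18.7 FPKM over the 6 libraries, and DCI1 from 14.6 to 18.6. The differences against IMX372 were 0.13 (95% interval -0.16 to 0.42) and 0.08 (-0.21 to 0.37) for ECI1, in IMX605 and IMX606 respectively. For DCI1 they were 0.08 (-0.22 to 0.39) and 0.14 (-0.16 to 0.45). PEX11, a membrane protein that promotes peroxisome division, stood at 177 and 187 FPKM (IMX605), 159 and 204 (IMX606), and 206 and 199.6 (IMX372). Both IMX605 libraries lay below IMX372, 1 IMX606 library lay below IMX372 and the other within its range, and the differences of -0.16 (95% interval -0.43 to 0.12) and -0.17 (-0.44 to 0.10) did not pass.

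**Figure D2:**
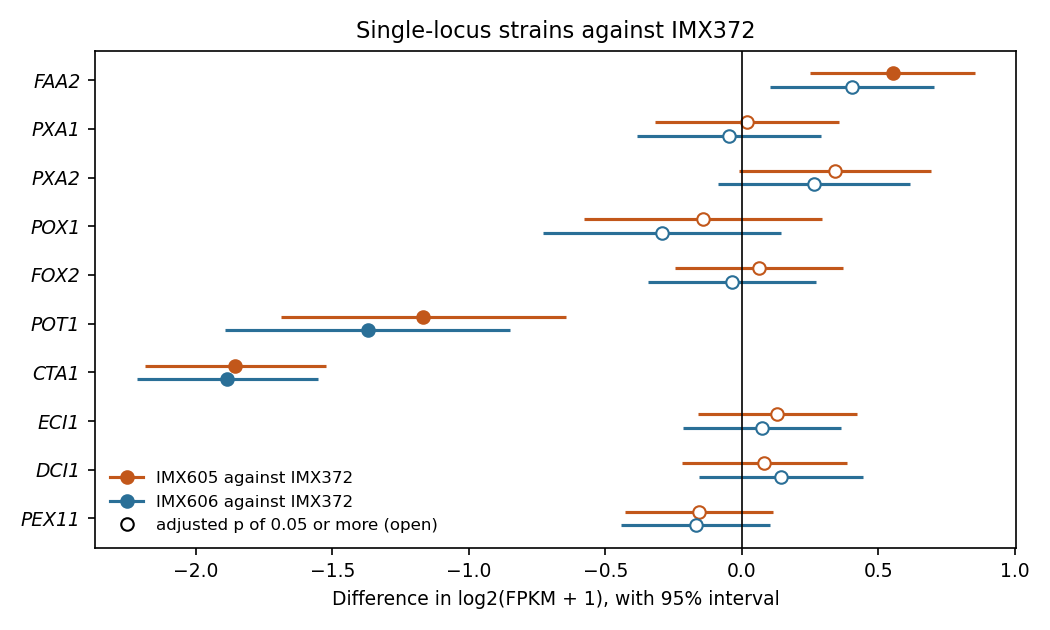
Differences in log2(FPKM + 1) of IMX605 and of IMX606 from IMX372, with 95% intervals from limma, where filled points passed an adjusted p of 0.05. CTA1 and POT1 lie at -1.86 and -1.17 in IMX605 and at -1.88 and -1.37 in IMX606, and apart from FAA2 in IMX605 (0.55) no other interval belongs to a called gene.

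Counted by single libraries, 3 of the 10 genes had both IMX605 values above both IMX372 values and 3 had both below, where 31.5% and 37.8% of all genes did. In IMX606 it was 2 above and 2 below, where 25.7% and 36.7% of all genes did. Between IMX605 and IMX606, limma called 0 of the 10 genes, where 0.202% of all genes tested were called (0.0733% higher and 0.128% lower). Of the 10, 0 had an unadjusted p under 0.05, against 199 of all 5459 genes. With voom, 0 of the 10 were called, against 11 over all genes. With so few over all genes, counts of 0 do not set the 10 apart. Only FAA2 had both IMX605 values above both of IMX606 and 0 genes had both below, where 15.7% and 12.7% of all genes did. The log2 differences between these strains ran from -0.06 (DCI1) to 0.20 (POT1), and that of CTA1 was 0.03 (95% interval -0.30 to 0.36).

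Genes that work beside the 10 were examined in lists drawn up from general knowledge of the pathway with earlier results of these data known. Of 6 regulators, 2 rose and 1 fell in each single-locus strain, with median differences of 0.14 and 0.21, where 30.0% and 23.9% of all genes tested were called in either direction. ADR1, the zinc finger activator of peroxisomal genes, had the largest difference of the 6. It read 5.48 and 7.04 FPKM (IMX605), 5.28 and 7.09 (IMX606), and 1.33 and 1.41 (IMX372). All 4 values were above both of IMX372, and the means were 4.57 and 4.52 times as high. The log2 differences were 1.61 (SE 0.20, adjusted p = 0.000127, limma) and 1.59 (SE 0.20, adjusted p = 0.000152). OAF1, of the Oaf1-Pip2 pair, averaged 19.4 ± 0.0983, 19.4 ± 0.872 and 16.7 ± 0.963 FPKM in IMX605, IMX606 and IMX372, with differences of 0.21 (adjusted p = 0.220) and 0.20 (adjusted p = 0.251) that did not pass. PIP2 (0.07 and 0.23) and OAF3, a repressor of the oleate response (-0.24 and -0.11), did not pass either. SNF1, the kinase required for release from glucose repression, rose by 0.37 (adjusted p = 0.0371) and 0.38 (adjusted p = 0.0402). MIG1, the gene of the glucose repressor, fell (-0.35, adjusted p = 0.0425, and -0.39, adjusted p = 0.0326). The calls of SNF1 and MIG1 ended in both strains when either IMX372 library was left out, and with several of the other libraries left out. In both strains that of SNF1 also ended without a filter on low values and without the trend, and that of MIG1 without a filter, with median-of-ratios scaling and with quantile normalization. Without a filter, 1 of the 6 regulators was called in each strain, which was ADR1.

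The second yeast catalase is the cytosolic enzyme encoded by CTT1, and it moved opposite to CTA1. Its levels were 11.1 and 17.7 FPKM (IMX605), 8.84 and 12.02 (IMX606), and 4.97 and 4.22 (IMX372), with log2 differences of 1.43 (adjusted p = 0.000543, limma) and 1.02 (adjusted p = 0.00560). The IMX606 call was lost without IMX372 DSE002 (adjusted p = 0.0841). The FPKM ratio of CTA1 to CTT1 was 3.69 and 4.77 in the IMX372 libraries and between 0.255 and 0.546 in the others, so the more abundant catalase transcript changed from CTA1 to CTT1. Of 7 genes of peroxide and superoxide defence, 5 rose in IMX605 and 2 in IMX606, where 15.0% and 11.1% of all genes tested were called higher, and the others did not pass in either direction. The IMX605 count was 2 without IMX605 R7, without IMX372 DSE002 or without a filter on low values. GPX1, HYR1 and SOD2 were called in IMX605 and lost under each of these, and GPX1 and HYR1 also without IMX372 DSE001. In IMX606 the count was 1 without IMX372 DSE002. GPX2, a glutathione peroxidase gene, rose from 61.1 ± 11.8 to 131 ± 15.4 FPKM in IMX605 and 145 ± 6.52 in IMX606. The median difference of the list was 0.37 and 0.20.

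The carnitine shuttle carries the acetyl units made in peroxisomes to mitochondria. In IMX605 4 of its 5 genes rose and in IMX606 2 of 5, the rest not passing, where 15.0% and 11.1% of all genes tested were called higher. The median differences were 0.76 and 0.68. The IMX605 count was 2 without R7 or without IMX372 DSE002. CRC1, the mitochondrial carnitine carrier, gave 13.7 and 19.8 FPKM (IMX605), 12.8 and 16.7 (IMX606), and 6.90 and 6.12 (IMX372), with differences of 1.22 (adjusted p = 0.000623, limma) and 1.06 (adjusted p = 0.00189). YAT2, a carnitine acetyltransferase, rose by 0.90 and 0.92. AGP2, a plasma membrane protein of carnitine uptake, rose by 0.76 in IMX605 (adjusted p = 0.0103), and its 0.51 in IMX606 did not pass (adjusted p = 0.0679). YAT1 rose by 0.73 in IMX605 (adjusted p = 0.0409), with 0.68 in IMX606 (adjusted p = 0.0631). The calls of CRC1 and YAT2 held in every alternative computed, while those of AGP2 and YAT1 in IMX605 ended without R7 or without IMX372 DSE002, and that of AGP2 also without IMX372 DSE001. The call of YAT1 in IMX605 ended as well without a filter (adjusted p = 0.137), with median-of-ratios scaling (0.0584), with quantile normalization (0.101) and without the trend (0.0600). AGP2 in IMX606 passed with median-of-ratios scaling (adjusted p = 0.0421, limma), with voom on recovered reads (0.0318) and without R13 (0.76). Under the first 2 of these settings the IMX606 count was 3. YAT1 in IMX606 passed without R8 (1.04) and without IMX372 DSE001 (1.01).

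Among 28 genes of peroxisome assembly and inheritance, PEX5, which encodes the import receptor for most matrix enzymes, had 2 gene models and was left out. Of the 27 tested, 3 rose and 3 fell in IMX605 and 2 rose and 3 fell in IMX606, where 30.0% and 23.9% of all genes tested were called, and the median difference was -0.0020 and -0.09. Without R7, 1 rose and 2 fell in IMX605, with PEX3, PEX17 and PEX21 no longer called, and without IMX372 DSE002 1 rose and 1 fell in IMX606. PEX18 encodes a co-receptor that works with Pex7 in importing the thiolase Pot1. PEX18 gave 1.17 and 0.964 FPKM (IMX605), 1.44 and 1.15 (IMX606), and 7.49 and 8.23 (IMX372), with the IMX372 values far above the other 4. The means were 7.38-fold and 6.06-fold lower than in IMX372, with log2 differences of -2.10 (SE 0.20, adjusted p = 1.69e-05, limma) and -1.95 (SE 0.20, adjusted p = 3.18e-05). The single-locus values rest on 16 to 23 reads per library. PEX21, the other Pex7 co-receptor and far more abundant, rose from 125 ± 3.92 FPKM to 171 ± 14.4 in IMX605 and 166 ± 6.98 in IMX606, and both calls ended without IMX372 DSE002 (adjusted p = 0.0626 and 0.0984). The IMX605 call of PEX21 also ended without R7, and the IMX606 call without R8 or IMX372 DSE001. PEX7 itself read 33.0 ± 0.424, 27.4 ± 0.0301 and 28.1 ± 1.97 FPKM and did not pass. INP1, which anchors peroxisomes in the mother cell, rose from 15.7 ± 1.54 to 42.0 ± 6.94 and 44.2 ± 4.88 FPKM, by 1.36 (adjusted p = 3.59e-05) and 1.44 (adjusted p = 2.56e-05). PEX25, of the Pex11 family, fell from 139 ± 22.9 to 90.4 ± 0.544 and 94.99 ± 6.95 FPKM, and the second of these calls was also lost without IMX372 DSE002 (adjusted p = 0.0926). A list of 12 accessory enzymes included the NADPH source IDP3 and the dienoyl-CoA reductase SPS19. Of these 12, limma called 0 in either strain, where 30.0% and 23.9% of all genes tested were called. In each strain 2 of them had an unadjusted p under 0.05, as did 2310 and 2033 of all 5459 genes. With voom, 0 of them were called, against 1779 and 1417 over all genes. In IMX605, median-of-ratios scaling called 1 higher and the fit of only the 2 groups compared called 2 higher. Calls in IMX605 also arose in some fits with a library left out. In IMX606, calls arose only in fits with a library left out. The median difference of these enzymes was 0.02 and -0.02.

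**Figure D3:**
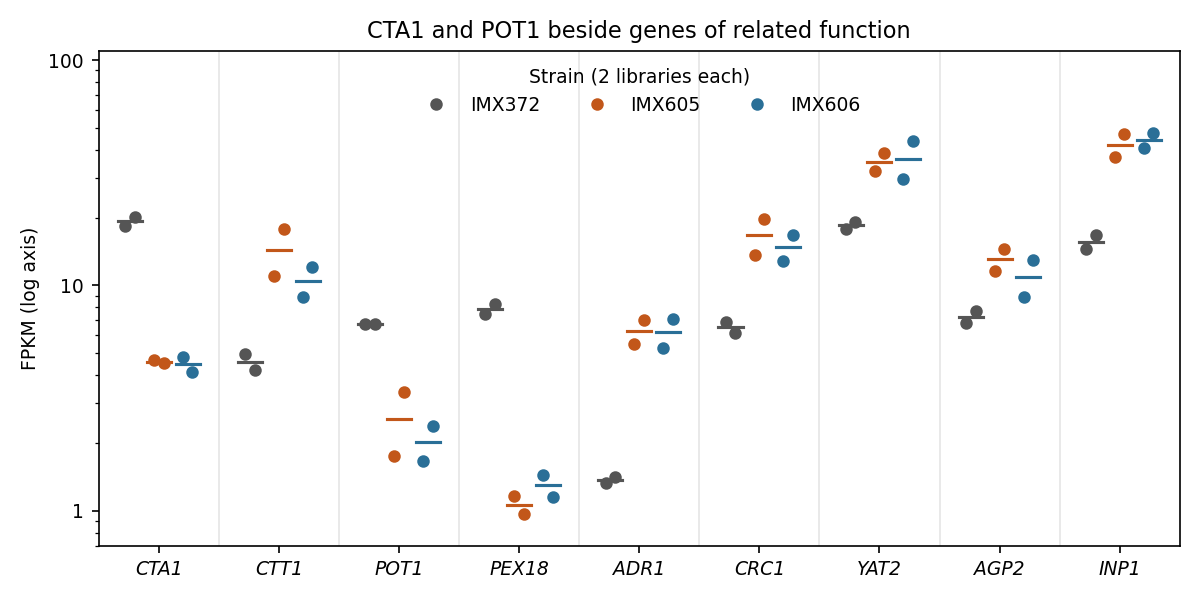
Transcript levels (FPKM, log axis) of CTA1 and POT1 beside genes of related function, with points for the 2 libraries of a strain and bars for their means. CTA1, POT1 and PEX18 are higher in IMX372, whereas CTT1, ADR1, CRC1, YAT2, AGP2 and INP1 are higher in all 4 libraries of the single-locus strains.

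The genes next to the 10 were examined to see whether a difference extended over a gene's surroundings. Of the 20 nearest genes on either side, limma called 6 in IMX605 and 5 in IMX606, where 30.0% and 23.9% of all genes tested were called. Beside genes that were not called, CHC1 next to POX1 was called higher in both strains (0.80 and 0.67). RSC4 next to FOX2 was called lower in both (-0.53 and -0.48). Both neighbours of PEX11, PSF3 (-0.56 and -0.38) and SPT20 (-0.46 and -0.49), were also called lower in both. Beside CTA1, the downstream gene RMD5, singled out after its values were seen, also fell. RMD5 encodes a ubiquitin ligase subunit that targets gluconeogenic enzymes, and it starts on the same strand 310 bases beyond CTA1. Its values were 10.4 and 12.5 FPKM (IMX605), 8.72 and 13.7 (IMX606), and 19.5 and 23.8 (IMX372), with differences of -0.86 (adjusted p = 0.00661, limma) and -0.91 (adjusted p = 0.00601). Both calls ended without IMX372 DSE002 (adjusted p = 0.0959 and 0.0964). The gene upstream of CTA1, RKM4, had differences of -0.21 and -0.17 that did not pass. Both neighbours of POT1 and both of FAA2 had differences of the opposite sign to the gene between them. Of these 4, limma called only HEM14, upstream of FAA2, lower in IMX605 (-0.46, adjusted p = 0.0219), and not without IMX605 R12 (0.170), R7 (0.0521) or IMX372 DSE002 (0.139).

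**Figure D4:**
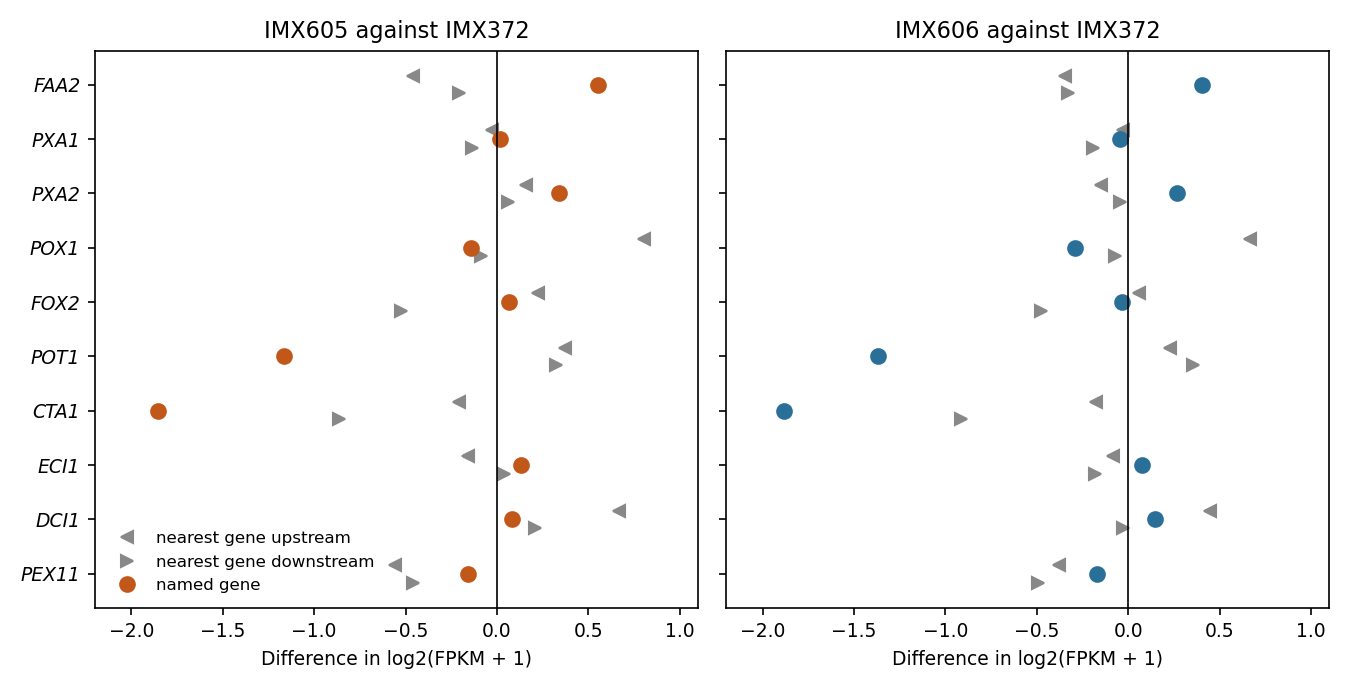
Differences in log2(FPKM + 1) from IMX372 for each of the 10 genes and for its nearest gene upstream and downstream, in IMX605 (left) and IMX606 (right). CTA1 (-1.86 and -1.88) has its downstream neighbour RMD5 on the same side at -0.86 and -0.91, while the neighbours of POT1 lie above 0.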

How the data were processed

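Polyadenylated RNA was sequenced in 6 libraries of 3 strains. The FPKM values are used as deposited by the authors, who per the submitters' processing notes used STAR 2.5.4a, SAMtools, featureCounts, edgeR and DESeq2, with no role or order given. Libraries were stranded per the labels' protocols, the table's chromosome names are those of CEN.PK113-7D, and no build version or strand setting of the counting is stated. Of 5625 rows, 5550 match RefSeq R64 by systematic name, and rows sharing a name are in no list. FPKM times length gave whole reads for 100% of values (tolerance 0.01).

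Log2(FPKM + 1) was fitted for the 5459 genes whose mean reached 1 FPKM (166 lay below) with limma 3.58.1 (R 4.3.3), with a mean per strain and an intensity trend (3 residual and 8.38 prior degrees of freedom). Genes were called at an adjusted p under 0.05. The fit was tested on simulated data, where false calls exceeded the nominal rate in some comparisons. The tests were repeated with 0.1 or 5 as the pseudocount, with the mean filter removed or raised to 5 FPKM, with median-of-ratios or quantile scaling, without the trend, with voom on recovered reads, with 2 groups only, and with each library left out. The rule for names took all 10 genes, up to 4 called genes per list and comparison with the smallest adjusted p, and OAF1, PIP2, OAF3, ADR1 and CTT1 always. PEX3, PEX7, PEX17, SOD2, FAS2, FEN1, IDP3, SPS19 and the 20 neighbours were added outside it. Of these, FAS2 and FEN1 were named after alternative fits had called them, and PEX3, PEX17 and SOD2 for calls that alternatives ended. PEX5, FAS1 and BUD25 are named only for their gene models or overlap. Genes and lists were chosen with earlier results of these data known. Motifs were searched in R64. By BLAST 2.17.0 on R64, 0 of the 10 genes had a copy with 95% identity over 200 bases. By the coordinates and values of the deposited table, 1 (POT1) had an opposite-strand gene within 500 bases at 10 times its level. Python 3.11.15 was used with pandas 2.3.3, numpy 2.4.6, matplotlib 3.10.9 and scipy 1.17.1.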

Additional observations from a re-analysis of the deposited data

How the results depend on the processing

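Over the 10 genes and 3 comparisons, 437 of 444 alternative values kept the side of the threshold. The exceptions were the calls of POT1 and FAA2 given with those genes. The differences of CTA1, POT1 and FAA2 from IMX372 kept their sign throughout. Small differences of genes not called could change sign, such as that of FOX2 in IMX605, from 0.06 to -0.07 at the lowest. When the filter asked for a mean of 5 FPKM, POX1 and POT1 were not tested. Of the 8 genes left, 1 was called higher and 1 lower in IMX605, and 1 lower in IMX606. That filter gave 1465 and 1144 calls over all genes tested. Over all genes, leaving out a library gave 798 to 1954 calls in IMX605 against IMX372, 594 to 1267 in IMX606 against IMX372 and 7 to 96 between the single-locus strains, where the full fits gave 1635, 1304 and 11. The counts that moved by over 1.5 times were, in the first, 798 without IMX372 DSE002, 810 without IMX605 R7 and 1030 without IMX605 R12, in the second 594 without IMX372 DSE002, and in the third 96 without IMX606 R13, 17 without IMX606 R8, and 7 without IMX605 R7 or either IMX372 library. The third count was 5 without a filter and 6 with only the 2 groups compared. Median-of-ratios scaling moved the split in IMX606 from 604 higher and 700 lower to 740 and 558. A pseudocount of 5 shrank the difference of ADR1 to 0.82 and 0.81 and that of PEX18 to -1.08 and -1.03, as its construction does for low genes. A fit with a library left out has fewer samples, and the cause of an ended call was not tested. No paired analysis was possible because the columns of the deposited table do not carry the replicate numbers of the labels. At 39 reads, as for POT1 in IMX606 R13, counting error alone spans 1.18 to 2.27 FPKM.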

Other observations

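Of 5 genes of the glyoxylate shunt, which turns the acetyl-CoA of fatty acid oxidation into C4 acids, 1 rose in each single-locus strain and the other 4 did not pass, where 30.0% and 23.9% of all genes tested were called in either direction. It was MDH2, the cytosolic malate dehydrogenase, which rose from 23.1 ± 1.90 FPKM in IMX372 to 43.8 ± 5.46 (IMX605) and 40.1 ± 12.3 (IMX606) (log2 differences 0.89 and 0.74, adjusted p = 0.00357 and 0.0123, limma). The call ended in both strains without IMX372 DSE001, and in IMX606 also without R8, without IMX372 DSE002 and without a filter on low values. The median difference of the list was 0.05 and -0.12.

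Of 7 genes of fatty acid synthesis and elongation, FAS1 had several gene models and was left out. Among the 6 tested, 1 rose and 1 fell in IMX605 and 1 rose in IMX606, where 30.0% and 23.9% of all genes tested were called in either direction. ACC1, acetyl-CoA carboxylase, rose from 64.1 ± 12.8 FPKM to 97.2 ± 9.70 in IMX605 and 96.8 ± 14.2 in IMX606 (0.60 and 0.59, adjusted p = 0.0121 and 0.0163, limma). Both calls ended without IMX372 DSE002 and without a filter on low values, that of IMX605 also without R12 and that of IMX606 also without R13. The elongase gene SUR4 fell in IMX605 (-0.31, adjusted p = 0.0495), a call that ended in 9 of 15 alternatives. FAS2 did not pass in IMX605 (0.41, adjusted p = 0.0718, limma), but was called higher with voom and with only the 2 groups compared. FEN1, at -0.30 in IMX605, was called lower in the latter fit. The median difference of the list was -0.23 and -0.18.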
